A study of Homo sapiens with 16 samples.

Results

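The data are poly(A)-selected RNA-seq libraries of 2 Flp-In T-REx HEK-293 cell lines on day 6 of induced HCF-2 synthesis. HEK-293 is an established human embryonic kidney line, and Flp-In T-REx cells carry a recombination site for 1 transgene and the Tet repressor, so that the transgene is switched on by doxycycline. One line carried Flag-Cherry-tagged wild-type HCF-2 (HCF-2WT) and the other the same fusion with a point substitution in each of its Fn3n and Fn3c elements (HCF-2Fn3nc*). Both lines were grown in medium with tetracycline-free serum and received 1 µg/ml doxycycline according to the sample labels. The comparison takes the 4 libraries labelled day 6, 2 of the HCF-2Fn3nc* line against 2 of the HCF-2WT line, of 16 libraries in all. The libraries of days 1, 2 and 4 are used to set the day 6 difference beside the earlier ones. They also take part in choosing the genes tested and in the shared estimate of spread behind the day 6 p-values and standard errors. Each line was made by Flp recombination and hygromycin selection, and the labels and methods do not say whether it was a single clone or a pool. No uninduced library and no library without a transgene was analysed here, so a difference between the lines and a difference between the proteins cannot be told apart. The sources say that induction was done in duplicate, without saying whether the duplicates were separate cultures before it, so the p-values measure the spread between these libraries, which may be technical.

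HCF-2, encoded by HCFC2, is the smaller paralog of HCF-1, a chromatin-associated protein that bridges DNA-binding factors and histone-modifying enzymes and is needed for cell proliferation. Both proteins have an N-terminal Kelch domain, through which cellular and viral factors bind, and fibronectin type 3 (Fn3) repeats, of which the Fn3n and Fn3c elements associate to form the Fn3nc module. The question the comparison addresses is what differs in gene expression between cells that make HCF-2 with an intact and with a mutated Fn3nc module.

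The 4 libraries held 20270033 to 27099466 expected counts, with the HCF-2WT libraries the deeper. The duplicates resembled each other across the tested genes (Pearson r of log2 CPM of 0.9976 in HCF-2WT and 0.9972 in HCF-2Fn3nc*) and differed by more than sampling noise (mean chi-square per gene of 9.592 and 5.514), so they were counted as 2 samples. HCF-2WT replicate 1 stood apart in having 31607 genes with at least 1 count, against 27383 to 27994 in the other 3, and 1.058% of its counts in mitochondrial mRNAs, against 0.4657% to 0.7177%. Of the 12 HEK-293 markers, VIM, KRT8, KRT18 and NEFL had 1321 to 22686 counts in every library, whereas NEFM had 8 to 25 and PAX2 12 to 33. Of the 11 tested, 4 were called lower in HCF-2Fn3nc*, by the rule given below for all genes, and 2 higher. NEFL, a neurofilament subunit, had 217 and 210 against 74.7 and 70.8 CPM (counts scaled to library size, a log2 difference of -1.55 ± 0.07), VIM, KRT8 and LHX1 were lower by 0.83, 0.71 and 1.05, and HOXA10 and HOXD10 were higher by 0.75 and 0.53. Markers of hepatocytes, blood, endothelium and squamous epithelium had 0 to 25 counts each (PECAM1 was not analysed here), and of the fibroblast markers COL1A2, DCN and PDGFRB had 0 to 8, COL3A1 69 to 105 and COL1A1 69 to 215. The fibroblast marker LUM had 7 and 1 counts in HCF-2WT and 60 and 69 in HCF-2Fn3nc*, and of the 2 fibroblast markers tested LUM was called higher (4.20) and COL1A1 lower (-0.93). In bulk RNA, fewer cells of a type and less RNA per cell cannot be told apart.

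The HCFC2 gene (GRCh37 chromosome 12, 104458309 to 104500302, plus strand), whose counts come from the endogenous gene and the transgene together, is given first. Both lines carry an HCFC2 transgene, so its level does not check which library is of which line. HCFC2 stood at 1362 and 1306 CPM in HCF-2WT and at 1396 and 1384 in HCF-2Fn3nc* on day 6. The difference was 0.06 ± 0.06 on the log2 scale (SE, n = 2 per line, edgeR adjusted p = 0.466), so the test did not separate the lines, although their libraries did not overlap. The mean HCFC2 level was 940 CPM in HCF-2WT on day 1 and 901 in HCF-2Fn3nc*, and on days 2 and 4 it was higher in HCF-2Fn3nc* by 0.46 and 0.38. HCFC1, which encodes HCF-1, had 158 and 165 CPM in HCF-2WT and 247 and 204 in HCF-2Fn3nc*. The difference of 0.48 ± 0.15 (edgeR adjusted p = 0.015) stayed under the fold threshold of 0.5. It was 0.34 without HCF-2Fn3nc* replicate 1 and 0.62 without replicate 2, and 0.43 and 0.49 without HCF-2WT replicate 1 or 2. With offsets for GC content and transcript length it was 0.82. OGT, the glycosyltransferase that cleaves HCF-1, was also higher without reaching that threshold, at 284 and 282 against 374 and 376 CPM (0.41 ± 0.06, adjusted p = 9.03e-05). The groups did not overlap for HCFC1 and OGT either.

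A gene was called higher or lower in HCF-2Fn3nc* at an adjusted p under 0.05 (edgeR quasi-likelihood test, Benjamini-Hochberg) and a log2 difference beyond 0.5. Of 18925 genes tested on day 6, 2501 (13.2%) were called higher and 3183 (16.8%) lower. The median size of a called difference was 0.91 on the log2 scale, 262 genes were higher and 270 lower by more than 2, and the median over all tested genes was 0.02. The duplicates of the lines did not overlap for 74.6% of the tested genes, so lack of overlap by itself is the common case here.

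**Figure D1:**
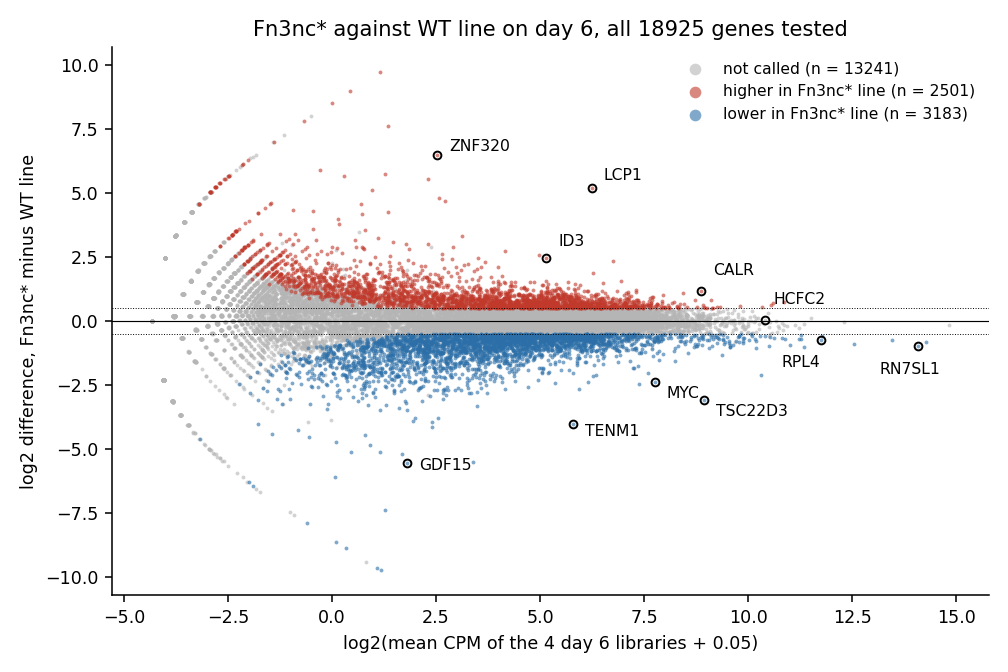
The log2 difference between HCF-2Fn3nc* and HCF-2WT on day 6 (vertical) is plotted against the log2 mean CPM of the 4 libraries, with 0.05 added (horizontal), 1 point per tested gene, red for the 2501 called higher, blue for the 3183 called lower and grey for the rest. Dotted lines mark the fold threshold of 0.5; HCFC2 lies at 0.06, LCP1 at 5.20 and TSC22D3 at -3.08.

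Genes with at least 100 counts on average were ranked by log2 difference, with clone names set aside. The largest gains were those of ZNF320 (6.5), EPHA5 (5.53) and LCP1 (5.20). LCP1, the actin-bundling protein L-plastin (chromosome 13, 46700055 to 46786006), had 3.89 and 4.12 CPM in HCF-2WT and 140 and 156 in HCF-2Fn3nc* (5.20 ± 0.12, adjusted p = 4.29e-13). ZNF320, a zinc-finger gene, had 0.194 and 0.0416 CPM against 12.3 and 10.4. EPHA5 and EPHA6, which encode Eph receptors for ephrin-A ligands, had 0.125 to 0.624 CPM in HCF-2WT and 9.26 to 12.1 in HCF-2Fn3nc*. SYT1, a calcium sensor of synaptic vesicles, had 0.466 and 0.499 against 12.8 and 12.2. All 5 genes were also called higher on each earlier day, and for LCP1 the differences on days 1, 2 and 4 were 5.26, 5.30 and 5.14.

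ID3, a dominant-negative helix-loop-helix protein and target of BMP signalling, took another course. ID3 had 11.04 and 10.6 CPM in HCF-2WT and 56.6 and 63.8 in HCF-2Fn3nc* on day 6 (2.48 ± 0.10, adjusted p = 4.47e-10), and the difference exceeded that on day 2 (0.79) by test (adjusted p of the difference between days = 1.73e-06). The related ID1 was higher by 1.91 ± 0.16, from 2.72 and 3.08 to 10.3 and 11.5 CPM. Also among the 12 largest were GLIPR1, PCDH19, RCBTB2, ALOX12P2 and the histone genes HIST1H2AL and HIST1H2BG, between 2.43 and 2.88. Histone gene copies are nearly identical, so the split of reads among them is uncertain. How much of their RNA passed the poly(A) selection was not measured either.

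The largest losses included genes of surface, secreted and intracellular proteins. TENM1, a teneurin cell-adhesion protein (chromosome X, 123509753 to 124338161), had 106 and 104 CPM in HCF-2WT and 6.34 and 6.47 in HCF-2Fn3nc* (-4.03 ± 0.09, adjusted p = 4.29e-13). TSC22D3, which encodes the glucocorticoid-induced leucine zipper, had 864 and 904 against 94.9 and 114 CPM (-3.08 ± 0.12, adjusted p = 1.25e-10). The cytokine IL18, the interferon-induced tetherin BST2, the chemokine IL8 and the urokinase PLAU were each lower by 3.10 to 4.12. CASKIN1, a synaptic scaffold gene, had 18.2 and 21.99 against 2.05 and 1.98 CPM, and FAM131B, TRIM47, FEZ1, CRAT and DDR2, which complete the 12 largest, were lower by 2.80 to 2.89. GDF15, a secreted stress cytokine, had 5.64 and 7.86 CPM against 0.137 and 0.145, the latter resting on 3 counts in each library.

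TENM1 and IL18 were already lower by 2.81 and 3.08 on day 2, whereas TSC22D3, BST2, IL8 and PLAU stood at -0.32 to -0.63 then. In order of the 4 days, the mean TSC22D3 level was 121, 91.9, 341 and 884 CPM in HCF-2WT and 41.9, 73.7, 74.6 and 104 CPM in HCF-2Fn3nc*. The wider gap on day 6 thus lay mostly in the level of the HCF-2WT line. MYC had the same form, with means of 116, 121, 226 and 364 CPM in HCF-2WT and 31.6, 57.6, 58.7 and 69.8 in HCF-2Fn3nc*.

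The 6 genes with the largest CPM gains were HSP90AA1, HSPA8, ACTB, HNRNPU, CALR and EIF4G1, and those with the largest losses RN7SL1, RN7SL2, EEF1A1, RPPH1, RPS2 and RPL4. HSP90AA1, the inducible cytosolic HSP90, had 1385 and 1390 CPM against 2285 and 2423, and HSPA8, the constitutive HSP70, 1213 and 1133 against 1817 and 1981. The beta-actin gene ACTB went from 1196 and 1171 to 1793 and 1822 (0.61 ± 0.07, adjusted p = 2.97e-06). HNRNPU, an RNA-binding protein of the nucleus, had 1016 and 1066 against 1536 and 1526 CPM, and the translation initiation factor EIF4G1 721 and 710 against 1104 and 1030 CPM. The 7SL RNA copies RN7SL1 and RN7SL2 had 21840 to 26120 CPM in HCF-2WT and 11560 to 14700 in HCF-2Fn3nc*, and the copies are so alike that their reads cannot be assigned with certainty. EEF1A1, the elongation factor that delivers aminoacyl-tRNA to ribosomes, had 14270 and 13930 CPM against 7937 and 9051 (-0.73 ± 0.09). RPPH1, the RNA of RNase P, was lower by 0.90 ± 0.11. The libraries were poly(A)-selected, so the CPM of the 7SL copies and of RPPH1 need not follow their levels in the cell. How much of each RNA passed the selection was not measured. The 10 most abundant genes took 11.5% and 11.4% of counts in HCF-2WT and 8.49% and 8.55% in HCF-2Fn3nc*, which the TMM scaling of the libraries allows for.

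**Figure D2:**
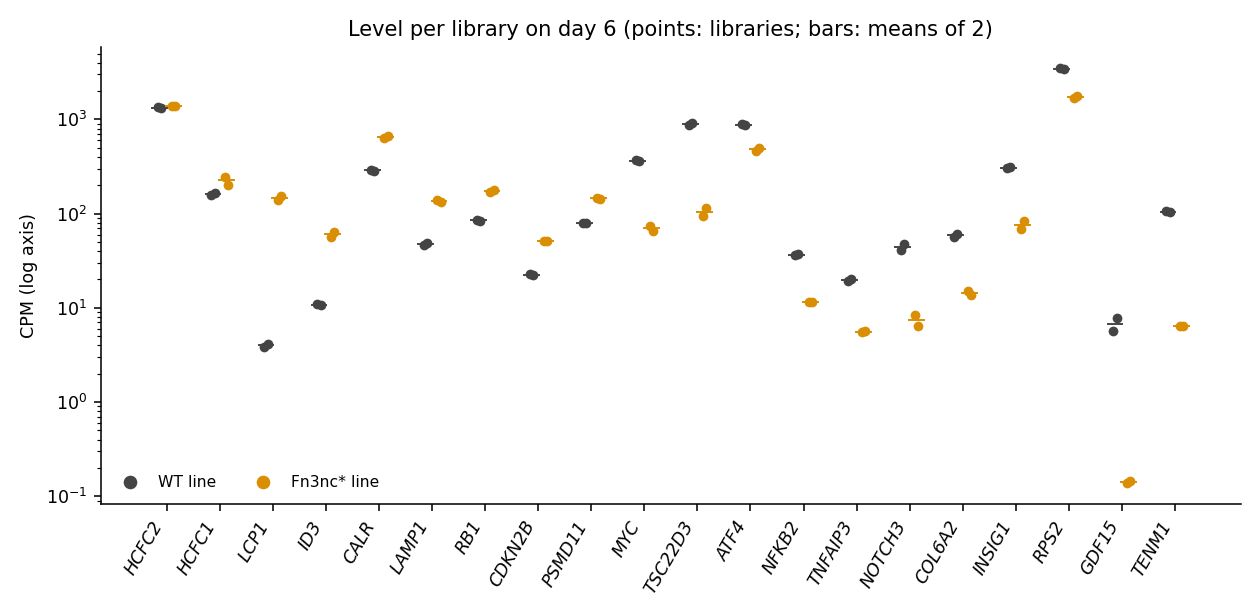
CPM on a log axis (vertical) for 20 genes named in the text (horizontal), with grey points for the 2 HCF-2WT and orange points for the 2 HCF-2Fn3nc* libraries of day 6 and a bar at each mean. The 2 points of a line lie close together, HCFC2 has the smallest difference of these genes (0.06), and LCP1 (3.89 and 4.12 against 140 and 156) and GDF15 (5.64 and 7.86 against 0.137 and 0.145) are furthest apart.

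Gene lists were set beside these shares of 13.2% higher and 16.8% lower. The first lists hold what HCF proteins are known to touch. Of 31 tested HCF partners, 5 were called higher and 3 lower, with a median log2 difference of 0.09. The number higher was 3 without HCF-2WT replicate 2 and 8 with offsets for GC content and length. Within the SET1 and MLL histone methyltransferase complexes, 1 of 12 was called (SETD1B, 0.66 ± 0.22, adjusted p = 0.0206), and that call was lost without either HCF-2WT library or without HCF-2Fn3nc* replicate 1. THAP1, a DNA-binding partner of HCF-1, had 13.9 and 12.4 CPM against 22.8 and 22.2 (0.78 ± 0.10). GABPA, an ETS factor that binds HCF-1, was higher by 0.64 ± 0.09. E2F1, the cell-cycle activator that binds HCF-1, was lower, at 134 and 137 against 73.4 and 72.9 CPM (-0.89 ± 0.09, adjusted p = 8.51e-07), and it was lower by 0.71 to 1.09 on each earlier day.

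Few DNA replication and mitosis genes were called on day 6. Of 50 DNA replication genes 5 were called higher and 2 lower, with a median of 0.00, and of 50 mitosis genes 1 was called higher and 2 lower, with a median of -0.01, all below the shares over all genes. Of 35 E2F, cyclin and CDK inhibitor genes 7 (20%) were called higher and 6 (17.1%) lower, with a median of 0.02. E2F8, an E2F repressor, had 10.8 and 10.6 against 26.7 and 29.35 CPM (1.39 ± 0.10, adjusted p = 6.55e-08). Of the 7 CDK inhibitor genes 3 were called higher and 2 lower. CDKN2B, the CDK4/6 inhibitor p15, had 22.9 and 22.2 CPM in HCF-2WT and 51.5 and 50.7 in HCF-2Fn3nc* (1.18 ± 0.07, adjusted p = 6.04e-09), and CDKN2C (p18) was higher by 0.95 ± 0.08. CDKN1A (p21) was lower, at 55.2 and 57.7 against 26.4 and 27.9 CPM. On day 1 the order had been the reverse, with CDKN1A means of 47.2 CPM in HCF-2WT and 109 in HCF-2Fn3nc*. RB1, the retinoblastoma protein that restrains E2F factors, had 85.3 and 84.2 against 168 and 178 CPM (1.03 ± 0.10).

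MYC and its partners did not move as a group. MYC itself, the growth-promoting transcription factor (chromosome 8, 128747680 to 128755197), had 369 and 360 CPM in HCF-2WT and 74.5 and 65.2 in HCF-2Fn3nc* (-2.38 ± 0.10, adjusted p = 4.47e-10). MYCL was lower by 1.31 ± 0.11 and MXI1, a MYC antagonist, by 0.71 ± 0.09, whereas the antagonist MXD1 was higher by 0.67 ± 0.09. Of 11 tested network members 7 were not called. Of 67 ribosome biogenesis genes, many of which MYC is known to activate, 9 were called higher and 3 lower, with a median of 0.16. UTP20, a component of the small-subunit processome, had 90.9 and 88.9 against 182 and 189 CPM (1.04 ± 0.07). NPM1, the nucleolar chaperone nucleophosmin, was lower by 0.55.

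Cytosolic ribosomal protein mRNAs were lower in HCF-2Fn3nc*. Of 77 tested, 45 (58.4%) were called lower and 0 higher, the median was -0.55, and the members ran from -1.02 to 0.13. At an unadjusted edgeR p under 0.05, 69 were lower and 0 higher. DESeq2 called 46 lower and 0 higher, and leaving out each library in turn gave 35 to 53 lower and 0 higher. Both subunits took part, with 28 of 45 large-subunit and 17 of 32 small-subunit genes. Their CPM summed to 78900 and 78650 in HCF-2WT and 50020 and 55040 in HCF-2Fn3nc*. RPS15 had 964 and 1050 CPM against 479 and 515 (-1.02 ± 0.07), RPS2 3497 and 3424 against 1689 and 1771, and RPL3 1911 and 1937 against 941 and 1021. The list's median was already -0.49 on day 1 and -0.47 on day 4, with -0.19 on day 2.

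The proteasome degrades ubiquitylated proteins, which its regulatory particle recognizes and unfolds. Of 40 tested proteasome genes, 11 were called higher (27.5%), 1 lower and 28 not, with a median of 0.35. Leaving out each library in turn gave 8 to 13 higher. Of the 17 regulatory-particle genes 9 were called higher, with a median of 0.51 and the lowest member at 0.06. PSMD11 had 80.3 and 79.3 CPM in HCF-2WT and 148 and 144 in HCF-2Fn3nc* (0.87 ± 0.07, adjusted p = 7.9e-08). Of the 14 core genes 2 were called higher. PSME1, a subunit of the interferon-inducible activator, was lower by 0.62 ± 0.08. On day 1 the list's median was -0.06.

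Of 44 tested chaperone and protein-folding stress genes, 10 (22.7%) were called higher and 3 (6.82%) lower. CALR, the endoplasmic reticulum lectin chaperone calreticulin, had 292 and 281 against 631 and 671 CPM (1.18 ± 0.07, adjusted p = 1.39e-08). HSPH1, an HSP70 exchange factor, had 89.5 and 84.3 against 190 and 191, DNAJA1 was higher by 0.94 ± 0.09, and HSPA5 (BiP) by 0.75. In the other direction HSPB1, a small heat-shock protein, had 21.8 and 27.7 against 9.58 and 10.2 CPM. DDIT3 (CHOP) and XBP1, transcription factors of the unfolded protein response, were lower by 1.04 and 0.57. The 8 TRiC/CCT subunits ran from -0.15 to 0.49, under the fold threshold.

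Genes of the ATF4 programme, in which the factor ATF4 activates amino acid synthesis and transport under stress, were lower. Of 30 tested, 21 (70%) were called lower and 2 higher, with a median of -0.76. Among the 20 stress and amino acid synthesis genes, 18 were called lower and 1 higher. ATF4 itself had 896 and 863 CPM in HCF-2WT and 467 and 491 in HCF-2Fn3nc* (-0.88 ± 0.06, adjusted p = 6.01e-08). PYCR1, which makes proline, had 60.7 and 64.7 against 17.9 and 20.8 CPM, and ASNS, which makes asparagine, was lower by 1.29. Among the serine and one-carbon enzymes PHGDH, PSAT1, PSPH, SHMT2 and MTHFD2 the differences lay between -0.53 and -0.85. The amino acid transporter SLC7A3 was lower by 3.39 ± 0.39, while SLC3A2, the common heavy chain of several transporters, was higher by 0.58 ± 0.08. The SLC3A2 call was lost without HCF-2Fn3nc* replicate 2 and the call of ATF5, the other member called higher, without HCF-2Fn3nc* replicate 1. Of 20 aminoacyl-tRNA synthetases 6 were called lower, LARS and IARS among them, and 3 higher.

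The list's median was already -0.39 on day 1, with 12 called lower and 5 higher, and was 0.09 on day 2 and -0.49 on day 4. For the factors ATF4 and DDIT3 the order of the lines on day 1 was the reverse of that on day 6. ATF4 was higher in HCF-2Fn3nc* by 0.93 on day 1 and by 0.36 on day 2, then lower by 0.67 on day 4. Its mean CPM went from 588 to 880 between days 1 and 6 in HCF-2WT and from 1120 to 479 in HCF-2Fn3nc*. DDIT3 had means of 11.6 and 22.4 on days 1 and 6 in HCF-2WT and of 36.7 and 10.9 in HCF-2Fn3nc*. Both lines thus contributed, in opposite directions.

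NF-kB subunits and target genes had the lowest median of all lists, -1.63. Of 19 tested, 14 (73.7%) were called lower and 1 higher. NFKB2, which encodes the p100 precursor of the non-canonical pathway (chromosome 10, 104153867 to 104162281), had 36.3 and 37.0 CPM in HCF-2WT and 11.6 and 11.4 in HCF-2Fn3nc* (-1.67 ± 0.10, adjusted p = 1.56e-08). Its partner RELB had 9.52 and 10.4 against 1.69 and 1.98, and TNFAIP3, the inhibitory enzyme A20, 19.1 and 20.2 against 5.57 and 5.65. The chemokines CXCL1, CXCL2, CXCL3, CCL2 and IL8 were lower by 1.63 to 3.79, all from low levels. NFKBIZ, an inhibitor-like cofactor, was higher, at 5.4 and 4.78 against 9.95 and 9.56 CPM. The list's median was 0.29 on day 1, 0.00 on day 2 and -1.28 on day 4, and NFKB2 was higher in HCF-2Fn3nc* by 1.53 on day 1.

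RefSeq promoters (GRCh38.p14, 250 bases before to 50 after the start) were read for 9 lists, and those of the NF-kB list are shown because its median was the lowest. They were found for 16 of its members and for 11227 of the tested genes. The kappa B motif GGGNNTTNCC, searched on both strands, was in 9 of the 16 promoters (56.2%) and in 6.52% of all. The motif was chosen after the list's values were seen, and the list was made of known targets. Of the 9 promoters with a match, 6 belonged to genes called lower and 1 to a gene called higher, and of the 7 without a match 5 belonged to genes called lower. The windows shown are 40 bases 5′ to 3′ on the gene's strand, with 1 match in capitals (TNFAIP3 holds another in lower case), for members called lower and, last, the member called higher.
CXCL1 (chr4:73869299-73869338, plus strand): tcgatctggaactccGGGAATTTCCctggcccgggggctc
NFKBIA (chr14:35404806-35404845, minus strand): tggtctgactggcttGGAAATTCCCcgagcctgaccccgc
TNFAIP3 (chr6:137867177-137867216, plus strand): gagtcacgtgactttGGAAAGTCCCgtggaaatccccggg
BIRC3 (chr11:102317270-102317309, plus strand): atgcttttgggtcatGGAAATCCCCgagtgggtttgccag
NFKBIZ (chr3:101827752-101827791, plus strand): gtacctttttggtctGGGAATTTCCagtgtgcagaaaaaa
CXCL1 and NFKBIZ hold the same 10 letters, at 70 and 214 bases before the start, and differed in opposite directions (-3.26 and 0.94). A match is a description of the letters and was not tested as a binding site. In the ATF4 list the C/EBP-ATF element TGATGNAA, also chosen after the values were seen, was in 6 of 23 promoters (26.1%), against 1.65% of all. Of these 6, 2 belonged to genes called lower and 1 to a gene called higher, and of the 17 without a match 12 belonged to genes called lower.

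The kappa B motif was in 6.75% of promoters of genes called higher and 7.14% of those called lower. For 7 of the other 9 motifs searched, also on both strands, the share was lowest in the promoters of genes called lower, the exceptions being the C/EBP-ATF element and the AP-1 motif. The E-box CACGTG was in 11% of promoters of genes called higher, 6.96% of those called lower and 9.98% of all. The NRF1-type motif GCGCATGC was in 5.37%, 2.96% and 5.4%, and the THAP11/ZNF143-type motif ACTACAA, which factors that recruit HCF-1 recognize, in 3.37%, 2.34% and 3.66%. The CCAAT box was in 39%, 32.3% and 37%, the E2F motif TTTCCCGC or TTTGGCGC in 3.44%, 3.28% and 3.65%, TGACGTCA in 3.24%, 2.47% and 3.34%, the TATA box TATAAA in 7.92%, 5.84% and 6.03%, the AP-1 motif TGAGTCA in 3.37%, 3.05% and 2.89%, and the C/EBP-ATF element in 1.79%, 1.98% and 1.65%. Median promoter GC content was 62.7% for genes called higher, 68.3% for genes called lower and 65.3% for all, and its part in these shares was not tested.

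Extracellular matrix genes made up the largest list of losses outside the ribosome. Of 62 tested, 36 (58.1%) were called lower and 5 higher, with a median of -0.73. COL6A2, a chain of microfibrillar collagen VI, had 56.1 and 61.4 CPM in HCF-2WT and 15.2 and 13.8 in HCF-2Fn3nc* (-2.02 ± 0.14, adjusted p = 3.9e-08), and its partner COL6A1 was lower by 1.69. The basement-membrane genes HSPG2, LAMA5, LAMA1, NID1 and COL18A1 were lower by 1.13 to 1.93, and fibronectin (FN1) by 0.97. Among the remodeling enzymes, LOXL1, which cross-links elastin, had 17.2 and 21.0 against 3.60 and 4.64 CPM, and the membrane protease MMP14 was lower by 1.92. COL12A1 was higher, at 8.78 and 8.23 against 17.2 and 22.7 CPM, but by less than on day 1 (1.23 against 3.77). COL1A1, also a fibroblast marker, was lower by 0.93 ± 0.28 and lost its call without HCF-2Fn3nc* replicate 2.

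Of 24 integrins, glypicans and syndecans, 15 were called lower and 1 higher, with a median of -0.73. GPC3, a heparan sulphate proteoglycan, had 50.1 and 55.8 against 12.8 and 13.5 CPM (-2.01 ± 0.10), and SDC4, a syndecan of focal adhesions, 54.6 and 54.0 against 18.4 and 19.5. The ITGAV call (0.50) was lost under 7 of the alternatives. Of 15 cadherins 7 were called lower and 3 higher, with the protocadherin PCDH19 (2.44 ± 0.18) at one end and CDH7 (-1.62 ± 0.17) at the other.

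Of the developmental signalling lists, Notch was the most one-sided. Of 18 tested Notch genes 14 (77.8%) were called lower, with a median of -0.87, and at an unadjusted edgeR p under 0.05, 16 were lower and 0 higher. NOTCH3 had 41.4 and 47.8 CPM in HCF-2WT and 8.49 and 6.42 in HCF-2Fn3nc* (-2.58 ± 0.18, adjusted p = 3.49e-08). Ligands (DLL1, DLL3, DLL4, JAG2), the modifiers MFNG and RFNG, and targets (HES1, HES4, HEYL, NRARP) were lower by 0.71 to 1.57. Of 12 Hedgehog genes 5 were called lower and 1 higher, including the effector GLI1 (-1.82 ± 0.32) and the decoy receptor HHIP (-1.04 ± 0.15). Of 33 Wnt genes 15 were called lower and 2 higher, with the ligand WNT3 at 26.7 and 26.9 against 6.39 and 5.60 CPM. Over the 3 pathways together, offsets for GC content and transcript length took the members called lower from 34 to 22 of 63. The list's median transcript GC content was 53.5%, and the part of GC content in its calls was not tested.

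TGF-beta, BMP and insulin-like growth factor genes went both ways. Of 38 tested, 7 were called higher, ID3 and ID1 first, and 16 lower. The BMP antagonist NOG had 5.32 and 6.32 against 1.41 and 1.16 CPM (-2.17 ± 0.23). IGFBP5, which binds insulin-like growth factors, had 86.2 and 91.8 against 22.5 and 21.4. Of 15 retinoic acid genes, 10 were called lower and 0 higher by edgeR and by DESeq2, and at an unadjusted edgeR p under 0.05, 10 were lower and 2 higher. The 10 include the synthesis enzyme ALDH1A3 (22.5 and 23.5 against 4.61 and 4.92 CPM), the receptors RARA, RARB, RARG and RXRA (-0.66 to -1.06) and CRABP2, a binding protein, at 59.7 and 55.4 against 18.7 and 17.1. Of 54 axon guidance genes 24 were called lower and 8 higher, with EPHA5 the highest and the semaphorin SEMA6B (-2.11 ± 0.20) among the lowest.

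HEK-293 cells express kidney regulators and HOX genes, which encode positional identity. Of 24 kidney development genes 10 were called lower and 14 not called, with RET, the receptor for GDNF (4.66 and 4.99 against 1.19 and 1.79 CPM), SIX2 (-1.41 ± 0.16) and WT1 (-0.73) among them. Of 34 HOX genes 13 (38.2%) were called higher, 4 lower and 17 not, with a median of 0.27. HOXA10 had 72.2 and 77.4 CPM in HCF-2WT and 121 and 131 in HCF-2Fn3nc* (0.75 ± 0.07, adjusted p = 5.35e-07). The members called higher lie mostly in the HOXA and HOXD clusters (HOXA2, HOXA3, HOXA5, HOXA6, HOXA9, HOXA10, HOXA13, HOXD3, HOXD4, HOXD9 and HOXD10), whereas HOXB7, HOXB9, HOXC11 and HOXD8 were lower. All 13 higher calls of the kidney and HOX list were HOX genes, and 9 to 12 calls were left on omitting any of the 4 libraries. The median of the HOX genes was -0.10 on day 1 and 0.24 on day 4.

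Metabolic lists differed by branch. Of 35 cholesterol and fatty acid synthesis genes 14 were called lower and 1 higher, with a median of -0.36. INSIG1, the sterol sensor that retains SREBP in the endoplasmic reticulum, had 303 and 314 against 69.5 and 82.7 CPM (-2.02 ± 0.10, adjusted p = 1.89e-09), and IDI1, of isoprenoid synthesis, 236 and 233 against 63.1 and 69.2. This list had its lowest median on day 1 (-0.82, with 25 called lower) and became less negative on each later day. Of 31 glycolysis and hypoxia genes 9 were called lower and 3 higher, with LDHA (0.83 ± 0.10) and the glucose transporter SLC2A1 (0.79 ± 0.07) higher and VEGFA (-1.02 ± 0.11) lower. Nuclear genes of oxidative phosphorylation differed little on day 6, with 4 called higher, 3 lower and a median of 0.04 over 76. On day 1 their median was -0.345, with 1 called higher and 23 lower, when 15.5% of all tested genes were called lower.

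The 13 mitochondrially encoded mRNAs had a median of -1.15, with 8 called lower, but the count rested on single libraries. Their CPM summed to 9760 and 5732 in HCF-2WT and to 5872 and 4072 in HCF-2Fn3nc*, so that HCF-2WT replicate 2 lay below HCF-2Fn3nc* replicate 1. Over the fits that left out each library in turn, 1 to 12 members were called lower, with 1 left without HCF-2WT replicate 1 or without HCF-2Fn3nc* replicate 2. MT-ND6 had 182 and 29.0 CPM in the HCF-2WT duplicates and 16.7 and 17.1 in HCF-2Fn3nc*.

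Lysosomal genes went both ways. MCOLN1, the lysosomal calcium channel mucolipin 1, had 3.46 and 3.33 against 14.1 and 13.1 CPM (2.01 ± 0.13). LAMP1, the abundant lysosomal membrane protein, had 46.5 and 49.2 against 138 and 134 (1.51 ± 0.07, adjusted p = 9.94e-10). Of 31 tested, 8 were called higher and 5 lower, the latter including TFEB and TFE3, transcription factors that activate lysosomal genes, at -1.23 and -0.63. Of 23 FOXO-linked and glucocorticoid-type genes 9 were called lower and 2 higher, and 6 were lower with offsets for GC content and length. ARRDC4, an arrestin of glucose sensing, had 118 and 121 against 23.8 and 22.2 CPM, and TXNIP, its thioredoxin-binding relative, 29.8 and 31.8 against 8.08 and 8.59.

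Of 41 interferon and MHC class I genes 13 were called lower and 3 higher, among them IFITM1 (21.7 and 19 against 3.42 and 3.28 CPM) and the peptide transporter TAP1 (-1.06 ± 0.09). Offsets for GC content and length gave 9 lower and 5 higher. Of 33 immediate-early and AP-1 genes 14 were called lower and 5 higher, with the YAP targets ANKRD1 (3.10 ± 0.38) and CTGF (1.57 ± 0.20) higher and the phosphatase DUSP4 (-1.46 ± 0.15) and IER3 (-1.42 ± 0.13) lower. The CPM of ANKRD1 were 0.583 and 0.540 in HCF-2WT and 3.51 and 6.28 in HCF-2Fn3nc*. Both YAP targets had been further apart on day 1. Their means were then 0.379 CPM in HCF-2WT and 234 in HCF-2Fn3nc* for ANKRD1, and 3.14 and 20.9 for CTGF. Of 21 ion channels 10 were called lower, CACNA1H and KCNH2 by 2.67 and 2.31, and 2 higher.

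**Figure D3:**
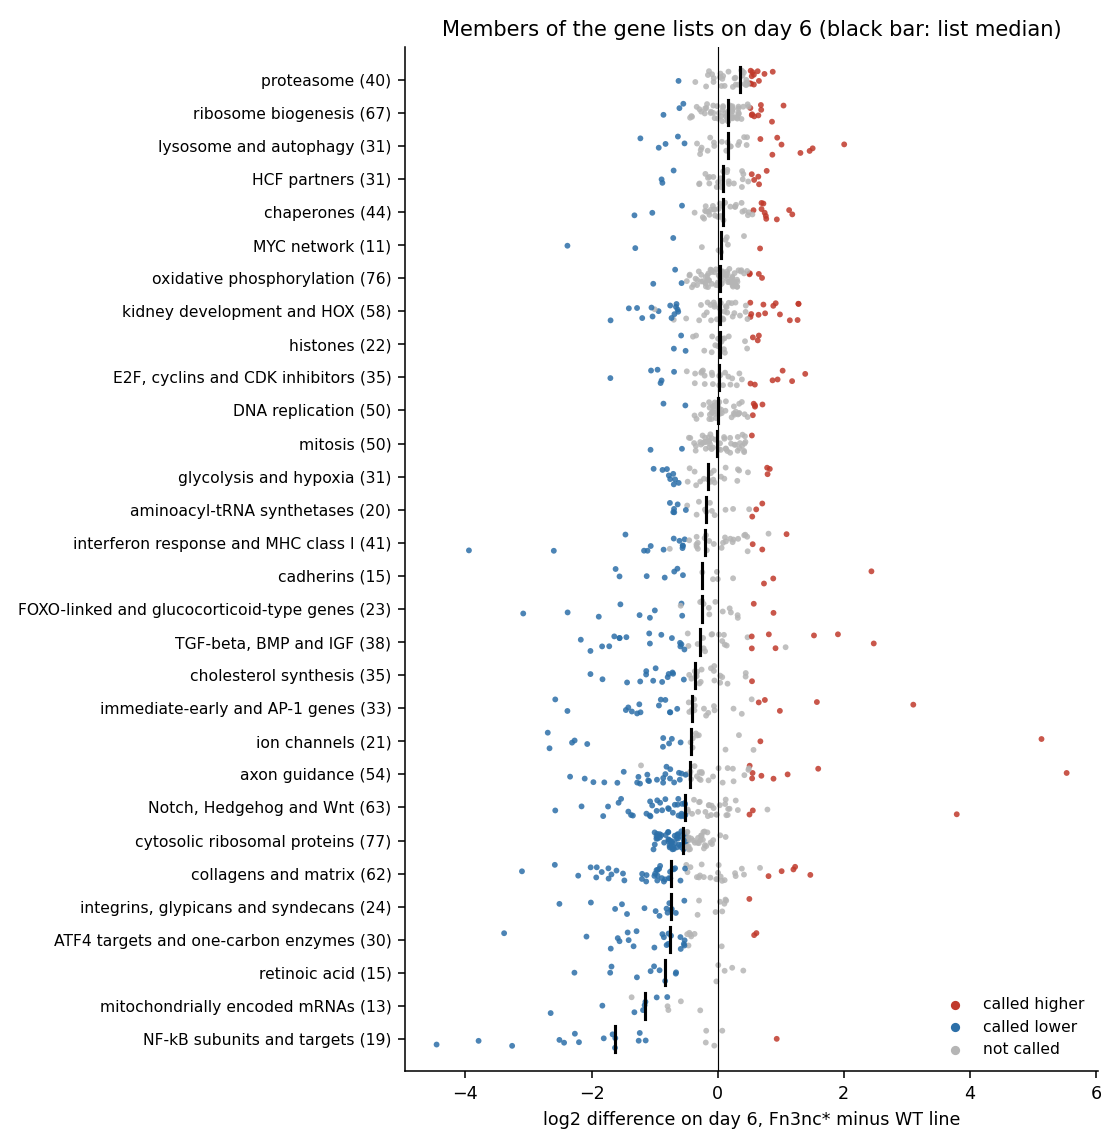
Each point is 1 gene, placed by its log2 difference between HCF-2Fn3nc* and HCF-2WT on day 6 (horizontal) and its list (vertical, number tested in brackets), red if called higher, blue if called lower and grey if not called. Black bars are list medians, from -1.63 for the NF-kB list to 0.35 for the proteasome, with DNA replication at 0.00 and mitosis at -0.01.

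The day 6 calls were then set beside the earlier days, which share no library with them. On day 1, 18.7% of the tested genes were called higher and 15.5% lower, on day 2 9.08% and 7.57%, and on day 4 10.1% and 12.1%. Of the 2501 genes higher on day 6, 1345 (53.8%) were also higher on day 4, where they were 70.7% of the calls, and 763 (30.5%) on day 2, where they were 44.4%. Of the 3183 lower genes, 1946 (61.1%) were also lower on day 4, 84.9% of the calls there, and 918 (28.8%) on day 2, 64.1% of the calls there. Calls in the same direction on all 4 days numbered 512 higher and 628 lower. Calls on day 6 and no earlier day numbered 729 higher and 672 lower. Another 303 genes were lower on day 6 and higher on day 1, and 85 were higher on day 6 and lower on day 1.

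The difference between the lines on day 6 was then tested against that on day 2, as an interaction of line and day with no fold threshold. It shifted up for 1951 genes (10.3%) and down for 2640 (13.9%), and without HCF-2WT replicate 1 or 2 it shifted up for 1231 and 1213. Against day 4 it shifted up for 45 genes (0.238%) and down for 133 (0.703%). The counts against day 4 fell to 3 to 14 up and 9 to 55 down when any of the 4 day 6 libraries was left out. Among lists, 26 of the 30 ATF4 genes and 42 of the 77 ribosomal protein genes shifted down from day 2 to day 6, and 21 of the 40 proteasome genes and 32 of the 67 ribosome biogenesis genes shifted up. TXNIP showed the whole path, with means of 9.80, 10.3, 18.9 and 30.8 CPM on days 1, 2, 4 and 6 in HCF-2WT and of 52.2, 20.9, 10.1 and 8.33 in HCF-2Fn3nc*. DDR2, a collagen receptor kinase, went from 2.99 to 17.5 CPM between days 1 and 6 in HCF-2WT and from 12.1 to 2.51 in HCF-2Fn3nc*. HSPA8 went the other way, from 2235 to 1173 in HCF-2WT and from 1427 to 1899 in HCF-2Fn3nc*.

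**Figure D4:**
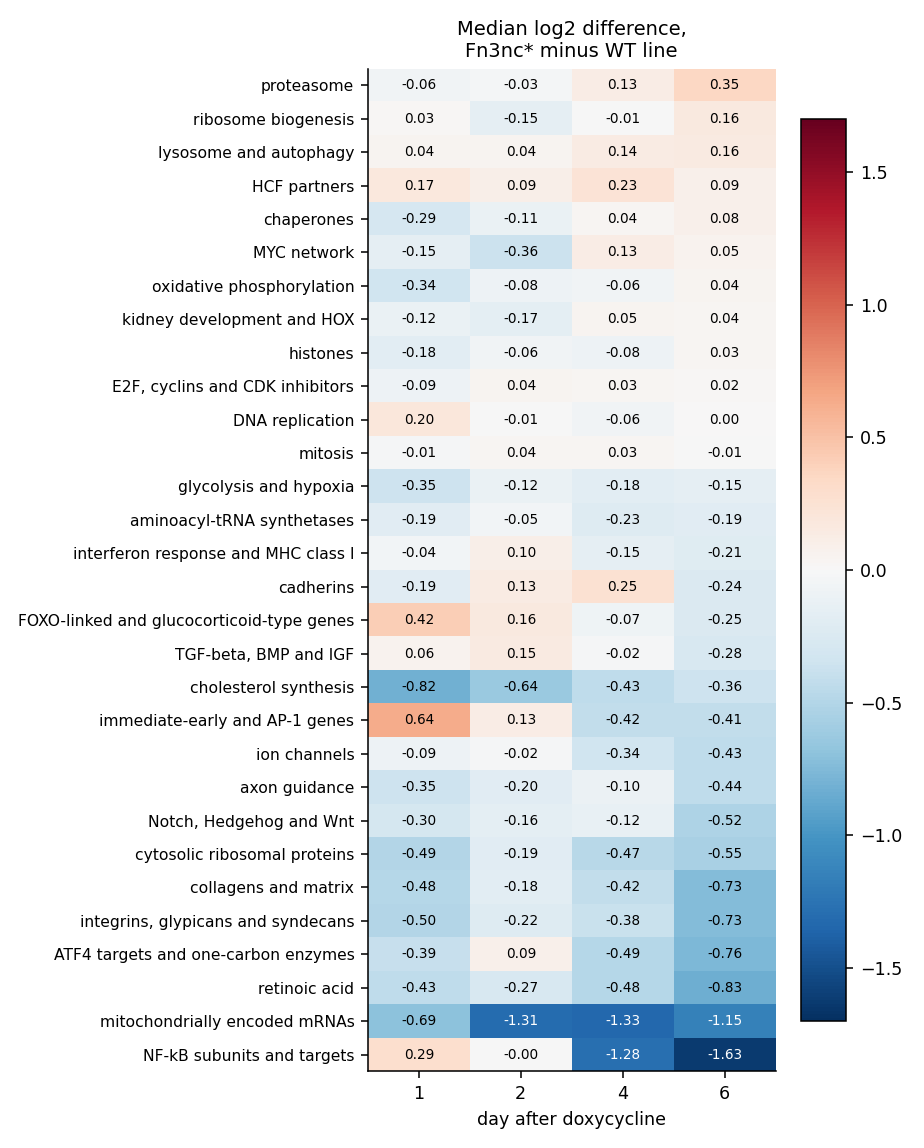
Median log2 difference between HCF-2Fn3nc* and HCF-2WT for each gene list (vertical) on days 1, 2, 4 and 6 (horizontal), printed in each cell and coloured blue for negative and red for positive. The NF-kB list goes from 0.29 to -1.63, while cholesterol synthesis goes from -0.82 to -0.36.

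Among genes called on day 6 and on no earlier day, with at least 100 counts on average, the largest shifts since day 2 belonged to genes of low level. ARC, an immediate-early gene of neurons, had 12.7 and 15.8 CPM in HCF-2WT and 5.16 and 5.17 in HCF-2Fn3nc* (-1.47 ± 0.14, adjusted p = 6.05e-07). KCNA6, a voltage-gated potassium channel, had 5.67 and 7.32 against 2.83 and 3.09, and NPTXR, a neuronal pentraxin receptor, 11.3 and 12.8 against 5.84 and 6.23. GPX3, the secreted glutathione peroxidase, had 4.39 and 4.12 against 8.49 and 8.40 CPM (0.99 ± 0.12). The leukotriene receptors LTB4R and LTB4R2 overlap each other and SLX1A-SULT1A3 is a read-through gene, so the split of their reads is uncertain. FAM156A, YJEFN3 and these 3 genes lost their calls without at least 1 of the libraries.

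A few genes had counts in only 1 line. AC034102.1, TMEM189-UBE2V1, MSANTD3-TMEFF1 and AL163636.6 had 120 to 218 counts over the HCF-2WT libraries of day 6 and 0 over those of HCF-2Fn3nc*. With 3 counts per group taken as the floor, each was at least 34.3-fold lower. AC015987.2 and RP11-514P8.6 had 187 and 111 counts in HCF-2Fn3nc* and 0 in HCF-2WT, at least 43.2-fold higher. On the other days the first 4, in the order named, had 151, 158, 1060 and 35 counts in HCF-2Fn3nc*. In HCF-2WT they then had 280, 189, 353 and 0, so the order of the lines was the reverse for MSANTD3-TMEFF1 and AL163636.6. The last 2 had 73 and 6 in HCF-2WT on those days, so none was absent from a line throughout. Both read-through genes in the first group overlap their parent genes, and RSEM assigns such shared reads by estimate.

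The difference between the lines also varied along the chromosomes. Over tested genes with a position and at least 50 counts on average, the median log2 difference on day 6 was 0.34 on chromosome 13, with 35% of 234 genes called higher, 0.16 on chromosome 19, with 32.3% of 910 called higher, and -0.33 on chromosome 20, with 32% of 337 called lower. The chromosome 13 median was 0.39, 0.44 and 0.33 on days 1, 2 and 4, and that of chromosome 20 was -0.32, -0.33 and -0.23. In windows of 20 Mb with at least 20 genes (153 windows, drawn after the chromosome medians were seen), 13 had a median above 0.2 and 15 below -0.2. The median had the same sign on all 4 days in 12 of the 13 and 15 of the 15, and in 77 of all 153 windows. The 13 and 15 were picked by the size of their day 6 median, so the share over all windows is not a like comparison. Of the 13069 genes in all 153 windows, 13.17% were called higher and 20.64% lower on day 6. These shares, rather than those over all tested genes, are the background for the chromosomes and windows.

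Several of these windows were neighbours. On chromosome 13, the 3 windows from 40 to 60, 60 to 80 and 100 to 120 Mb had day 6 medians of 0.49, 0.69 and 0.44, whereas 20 to 40 Mb had 0.01 and 80 to 100 Mb 0.18. LCP1, RB1 and RCBTB2 lie in the first of these, and LAMP1 in the last. On chromosome 5 the windows from 0 to 60 Mb had medians of 0.42, 0.28 and 0.30. On chromosome 16 the windows from 0 to 40 Mb had -0.35 and -0.35 and those from 60 to 100 Mb 0.31 and 0.26, and on chromosome 17 the windows from 0 to 40 Mb had 0.36 and 0.26 and that from 60 to 80 Mb -0.40. The last window of chromosome 19, from 40 to 60 Mb, had 0.50 with 49% of 351 genes called higher, ZNF320 among them. On chromosome 20 the windows from 20 to 80 Mb had -0.42, -0.33 and -0.37. E2F1, called lower, and ID1, called higher, lie in the window from 20 to 40 Mb, where 41.82% of 110 genes were called lower. On chromosome X the windows from 0 to 20 and 20 to 40 Mb had the lowest medians of all, -0.435 and -0.43, with 48% of 50 and 38.7% of 31 genes called lower, but -0.12 and -0.17 on day 2. Across the 153 windows the day 6 medians followed those of day 2 with Pearson r = 0.83, and those of days 1 and 4 with r = 0.79 and 0.88, given as a description of windows that share a genome and no library. The cell lines' DNA was not analysed here, and the part of chromosomal position in the calls was not tested.

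**Figure D5:**
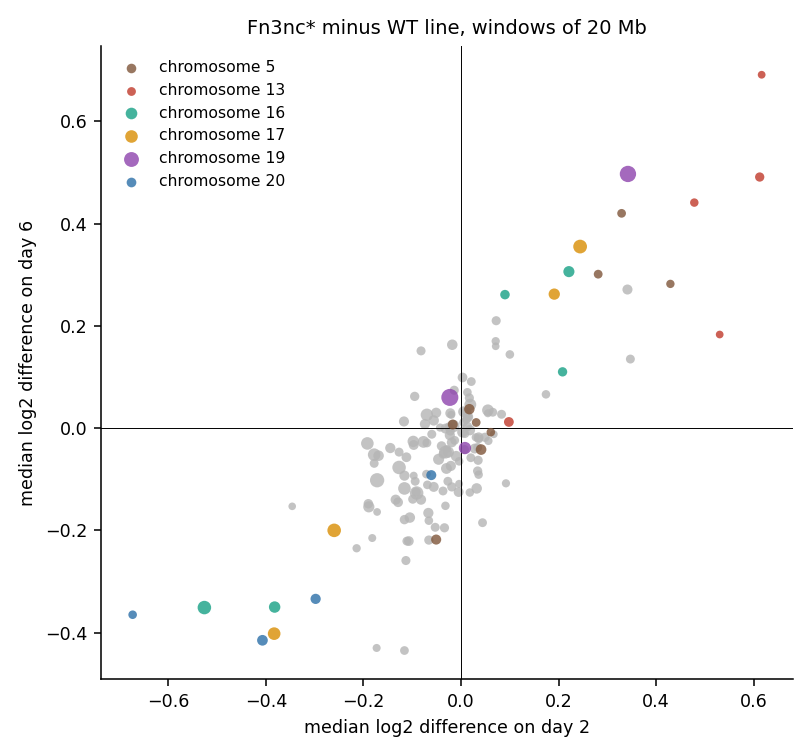
Each point is a window of 20 Mb with at least 20 genes, placed by the median log2 difference between HCF-2Fn3nc* and HCF-2WT of its genes on day 2 (horizontal) and on day 6 (vertical), sized by its number of genes and coloured for 6 chromosomes. Some windows of chromosomes 5 (0 to 60 Mb), 13 (40 to 120 Mb) and 19 (40 to 60 Mb) lie at the upper right, up to 0.69 on day 6. Those of chromosome 20 from 20 to 80 Mb lie at the lower left, down to -0.42 on day 6.

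Base composition moved with the calls as well. From the fifth of genes with the lowest GC content to the fifth with the highest, the median log2 difference went from 0.11 to -0.21, the share called higher from 14.8% to 9.63% and the share called lower from 8.78% to 30.1%. Between the duplicates of 1 line the same medians spanned 0.01 to -0.03 in HCF-2WT and -0.04 to 0.04 in HCF-2Fn3nc*, a narrower range than between the lines. With offsets for GC content and transcript length, 2812 genes were called higher and 2714 lower. The counts lower among ribosomal protein genes (45), matrix genes (34) and NF-kB genes (14) were then close to those without offsets (45, 36 and 14). Other lists fell further, Notch, Hedgehog and Wnt from 34 to 22 and axon guidance from 24 to 18. Interferon and MHC class I genes fell from 13 to 9, and FOXO-linked and glucocorticoid-type genes from 9 to 6. With genes split by transcript length into 5 equal parts, the shortest had a median of 0.31 and the others -0.01 to -0.04. Fewer of the shortest were called in either direction. Of these, 9.91% were called higher and 5.53% lower, against 12.6% to 14.7% and 18.7% to 21.9% in the others.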

How the data were processed

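Poly(A) RNA of 16 libraries (2 lines, 4 days, 2 libraries each) had been sequenced as single-end reads. According to the submitters' processing notes and the study's methods, the authors aligned reads with STAR to GRCh37 and deposited RSEM 1.3.0 expected counts per gene. The FPKM values deposited beside them by the authors served only as a filter. Use of the kit's molecular labels could not be learned from these sources. Counts were rounded, and the 18925 of 57820 genes whose FPKM exceeded 1 in any library entered edgeR 4.0.16 (R 4.3.3), in a quasi-likelihood fit of 8 groups over all 16 libraries with TMM scaling, since they share an estimate of the spread (common coefficient of variation 0.07787). Standard errors are the log2 difference over the square root of F. All value columns matched a sample. Day 6 depth was 20270033 to 27099466 counts.

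The members and gene lists were chosen with earlier results of these data known. Genes named are HCFC2, HCFC1 and OGT, the 12 largest called differences each way (mean count of at least 100, groups not overlapping, clone names left out), the 6 largest CPM differences each way, up to 4 called members of each list in its main direction and 2 in the other (mean count of at least 50), and the 6 largest line by day differences each way among genes called on day 6 alone. Other members named were chosen after their values were seen. Positions are GRCh37, and promoters are RefSeq, GRCh38.p14. Alternatives were the 4 day 6 libraries alone, DESeq2 1.42.0, its size factors in edgeR, other filters, a replicate block, each day 6 library left out, other fold rules and, added after seeing the data, offsets for GC content and transcript length (96.52% of tested genes had both). The fit was tested on simulated data. Some genes, and 1 gene list, are not reported here.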

Additional observations from a re-analysis of the deposited data

Results flagged for a closer look

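The difference between HCF-2Fn3nc* and HCF-2WT changed with the day in the interaction test (edgeR, adjusted p under 0.05). It was higher on day 6 than on day 2 for 1951 genes and lower for 2640, and higher on day 6 than on day 4 for 45 and lower for 133.

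Among genes called on day 6 and on no earlier day, the day 6 difference exceeded that of day 2 by 2.296 (log2) for SLX1A-SULT1A3, by 1.586 for YJEFN3, by 1.376 for LTB4R, by 1.33 for LTB4R2 and by 1.237 for GPX3. The corresponding shift was -1.596 for ADAMTS7, -1.583 for KCNA6, -1.549 for ARC, -1.458 for BTBD11, -1.454 for NPTXR and -1.441 for HHIP. Genes of both directions were picked by the size of this shift and by an adjusted p under 0.05 in the edgeR interaction test. The sizes are therefore no separate support for a shift. SLX1A-SULT1A3, LTB4R and LTB4R2 overlap other genes, so their reads cannot be assigned with certainty.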

How the results depend on the processing

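With 2 libraries per group the p-values rest on the spread shared by 8 groups, and a library left out leaves its group with 1, which is then assumed to vary like the others. The 2501 higher and 3183 lower calls of day 6 became 2145 and 3008 with DESeq2, 1945 to 2341 and 2941 to 3132 with each library left out, 4161 and 4721 with no fold threshold, and 1180 and 1929 with glmTreat against a log2 difference of 0.5. None of the named genes changed direction. The labels give both lines the same replicate numbers without saying what a number marks, and the deviations of same-numbered day 6 libraries correlated at 0.1634. With the number as a replicate block, 2440 were higher and 3155 lower.

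The shift from day 2 was up for 3305 genes with offsets for GC content and length, and for 1213 to 1456 with each library left out (down for 2011 to 2229). The shift from day 4 was up for 45 genes, against 116 with DESeq2, 134 with no FPKM filter, 82 with the filter on day 6 libraries, 25 with the replicate block, 156 with the offsets and 3 to 14 with each library left out. It was down for 133, against 358 with DESeq2, 480 with no FPKM filter and 9 to 55 with each library left out. The cause was not tested.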
